A study of Mus musculus with 5 samples.

Results

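Translation factors and tRNA synthetases were taken from the deposited gene tables by name: every gene whose symbol begins Eif1 to Eif6, every symbol made of 1 amino acid letter and ars, with or without a final 2, and Eprs, Farsa and Farsb. The rule found 87 genes of the 11924 listed. They are 42 initiation factors, 8 regulators of initiation (the kinases of eIF2 and the proteins that bind eIF4E), 20 cytosolic synthetases and 17 mitochondrial synthetases, whose symbols end in 2. A mean of at least 20 CPM (a per-million-UMI count) over the 5 libraries was required before ratios were counted. It was met by 40 initiation factors, 5 regulators, 20 cytosolic and 8 mitochondrial synthetases, 73 of the 87 genes, and by 7249 of all listed genes.

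The cells were SMARTA cells, CD4 T cells with a transgenic T cell receptor on the C57BL/6 background, sorted as CD4+CD45.1+ and profiled by droplet sequencing of transcript 3′ ends. Each of 5 groups is 1 library: cells of tumor-side inguinal lymph nodes at day 8 from mice given both Treg depletion and anti-CTLA4, Treg depletion alone, anti-CTLA4 alone (aCTLA4) or no such treatment, and naive cells from spleen. Treg depletion was by diphtheria toxin on days 0 and 2, and the antibody was given on days 0, 2 and 5. The other mice of the toxin scheme had PBS. The design text also names an isotype antibody, without saying which library had it. The tumor is named differently in the growth and treatment labels, and the labels give neither the depletion allele nor how many mice a library pools. With 1 library a group there is no test and no replicate error. Every interval below is at the 95% level, exact, and covers counting error only. A difference between libraries cannot be told apart from a difference between mice or sorts. For the naive library it also cannot be told apart from a difference between spleen and lymph node.

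Translation begins when eIF2, carrying the initiator tRNA, joins the small ribosomal subunit together with eIF1, eIF1A, eIF3 and eIF5. The eIF4 factors bring the mRNA: eIF4E binds the cap, eIF4G is the scaffold, and eIF4A, helped by eIF4B, unwinds the leader. Kinases that phosphorylate the alpha subunit of eIF2 (Eif2s1) slow this step, because eIF2B can then no longer recharge eIF2, and eIF4E-binding proteins hold back the cap step until mTOR releases them. Aminoacyl-tRNA synthetases join each amino acid to its tRNA, with separate sets for the cytosol and the mitochondria, although Gars and Kars serve both. T cells leaving quiescence grow and increase their protein synthesis before they divide. Myc and Atf4 are known activators of many genes of this kind.

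The stretches before the start sites of 7 members are shown because they hold, or for Farsa lack, letters known for those activators. The stretches end at the base before the start, except that those of Eif4e and Aars end earlier. The E-box letters CACGTG are bound by Myc and related proteins, and TGATGNAA, or TTNCATCA on the other strand, is the core of the amino acid response element. Sequences are from RefSeq, build GRCm38.p6, 5′ to 3′ on the gene's strand, with these letters in capitals. In these stretches Eif5a and Eif4e hold the E-box; Farsa and Farsb, the 2 subunits of 1 enzyme, differ in it; Aars holds both motifs, and Gars and Tars hold the amino acid response letters. Counted to the start, the E-box lies 74 bases before it in Eif5a, 64 in Eif4e, 39 in Farsb and 146 in Aars, and the amino acid response letters 112 in Aars, 30 in Gars and 15 in Tars.
Eif5a (chr11:69921387-69921496, minus strand): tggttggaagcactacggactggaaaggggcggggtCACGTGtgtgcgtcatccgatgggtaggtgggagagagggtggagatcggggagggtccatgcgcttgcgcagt
Eif4e (chr3:138527158-138527227, plus strand): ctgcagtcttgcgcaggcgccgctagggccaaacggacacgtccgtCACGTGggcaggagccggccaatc
Farsb (chr1:78488898-78489007, minus strand): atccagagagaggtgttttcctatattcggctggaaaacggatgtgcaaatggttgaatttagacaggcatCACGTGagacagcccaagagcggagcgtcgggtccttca
Farsa (chr8:84856876-84856985, plus strand): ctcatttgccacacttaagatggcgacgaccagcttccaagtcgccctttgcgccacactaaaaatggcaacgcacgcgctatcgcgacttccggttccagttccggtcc
Aars (chr8:111033662-111033781, plus strand): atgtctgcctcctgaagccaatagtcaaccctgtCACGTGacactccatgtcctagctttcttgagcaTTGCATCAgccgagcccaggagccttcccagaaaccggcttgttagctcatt
Gars (chr6:55037891-55038000, plus strand): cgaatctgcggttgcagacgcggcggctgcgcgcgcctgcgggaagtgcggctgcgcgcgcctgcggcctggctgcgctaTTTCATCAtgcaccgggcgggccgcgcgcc
Tars (chr15:11399659-11399768, minus strand): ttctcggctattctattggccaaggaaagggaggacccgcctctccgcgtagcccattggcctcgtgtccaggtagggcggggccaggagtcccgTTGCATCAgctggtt

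Of the 87 members, 66 matched a RefSeq promoter by symbol, each a window of 250 bases before to 50 after the start, searched on both strands. CACGTG was in 9 of 34 initiation factor promoters (26.5%), 4 of 12 cytosolic synthetase promoters (33.3%), 1 of 14 mitochondrial synthetase promoters (7.14%) and none of 6 regulators, beside 2187 of all 27025 promoters (8.09%). The initiation factors were Eif1b, Eif3a, Eif3k, Eif4a1, Eif4e, Eif4g1, Eif4h, Eif5a and Eif5a2, and the cytosolic synthetases were Aars, Farsb, Iars and Tars. TGATGNAA was in 5 of 12 cytosolic synthetase promoters (41.7%), those of Aars, Gars, Iars, Tars and Yars, in 1 of 34 initiation factor promoters (2.94%, Eif2s3x) and in none of the regulators or mitochondrial synthetases, beside 1219 of all promoters (4.51%). A match is a description of the letters and not evidence of binding.

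The libraries held 4343 cells with both treatments, 2186 Treg-depleted, 4566 aCTLA4, 1099 untreated and 7955 naive cells, with 3825958 (untreated) to 27967273 UMIs (aCTLA4) in all and median UMIs per cell of 1683 (naive) to 5208.5 (Treg-depleted). CPM is over the UMIs of the listed genes, among which 14 are ribosomal protein and 5 mitochondrial genes. Of 20101 distinct barcodes, 48 occurred in more than 1 library. Cd4, Thy1 and 4 other T cell markers had UMIs in every library (3380 to 4753 CPM summed). Markers of plasma cells summed to 117, 281, 105, 14.4 and 2.61 CPM with both treatments, Treg depletion, aCTLA4, no treatment and in naive cells, and those of gamma-delta T cells to 95.2, 86.5, 321, 406 and 569 CPM. No doublet caller was run. Their part in the results below was not tested, but ratios were also taken without cells holding at least 2 such markers.

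The summed level of the 42 initiation factors was 15669 CPM with both treatments, 15881 with Treg depletion, 14873 with aCTLA4, 14895 in untreated and 12606 in naive cells. Tumor-side cells of all 4 libraries thus gave a larger share of their UMIs to these 42 genes than naive cells. The set is by name and includes Eif5a, which helps the ribosome form difficult peptide bonds. The Eif5a level, given below, was also higher in all 4 libraries than in naive cells. Eif5a is thus a large part of the excess of these sums, most so with both treatments and with Treg depletion. The cytosolic synthetases had the same order of tumor-side over naive, at 2322, 2431, 2208, 2173 and 1931 CPM. For the mitochondrial synthetases the order was the other way, at 433, 387, 456, 494 and 541 CPM, with naive cells highest. The regulators summed to 431, 407, 421, 454 and 544 CPM, also highest in naive cells.

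Members differed widely in how much they varied across libraries. The flattest measured members were Eif2d, at 47.0, 51.1, 49.0, 48.6 and 47.4 CPM in the same library order, and Farsa, at 98.01, 104, 106, 104 and 110 CPM. Farsa encodes the alpha subunit of phenylalanyl-tRNA synthetase. Farsb (chromosome 1, 78417975 to 78488897, minus strand), which encodes the beta subunit of the same enzyme, had 180, 102, 179, 246 and 84.04 CPM. The subunits of 1 enzyme therefore did not share a pattern: the highest Farsb level was 2.92 times the lowest, against 1.12 for Farsa. The last 300 bases of Farsb share no 31-base words with a gene on the same strand but 220 with Sgpp2 on the opposite strand. Whether counting used strand is not given in the sources used here, so reads of the overlap cannot be told apart if it did not.

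Among measured initiation factors the highest library stood furthest above the lowest, as a ratio, for Eif4a2 (chromosome 16, 23107444 to 23114136), an RNA helicase and the close relative of Eif4a1. It had 165, 107, 158, 246 and 454 CPM with both treatments, Treg depletion, aCTLA4, no treatment and in naive cells. Eif4a1 had 1235, 1250, 1018, 899 and 1019 CPM, highest in the toxin libraries. Eif4a2 shares 29.9% of the 31-base words of its transcript end with other genes on the same strand, mainly Gm2999, so its level is uncertain to that extent. Eif5a (chromosome 11, 69916714 to 69921958), which helps the ribosome form difficult peptide bonds, had 2537, 2734, 1829, 1624 and 946 CPM, with the toxin libraries highest and naive cells lowest. Eif4e3, a cap-binding relative of Eif4e, had 49.0, 63.4, 16.2, 30.6 and 34.9 CPM, with aCTLA4 cells lowest.

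Of the regulators, Eif4ebp1 (chromosome 8, 27260329 to 27276674), whose product binds and blocks eIF4E until mTOR phosphorylates it, had 31.7, 43.7, 11.4, 12.5 and 15.0 CPM. Both toxin libraries stood above the other 3. Its relative Eif4ebp2 did not share this order, at 186, 173, 213, 233 and 337 CPM. The eIF2 kinases were low and close: Eif2ak1 lay between 46.4 and 56.5 CPM and Eif2ak2 between 43.7 and 62.7 CPM, while Eif2ak3 (8.67 to 13.9 CPM) and Eif2ak4 (6.81 to 12.5 CPM) were under the minimum.

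Wars (chromosome 12, 108860030 to 108894174), the tryptophanyl-tRNA synthetase, known in human cells as a gene that interferon gamma induces, had 75.4, 85.7, 41.6, 40.5 and 31.9 CPM, again with both toxin libraries above the rest. Vars, the valyl-tRNA synthetase, had 161, 186, 108, 103 and 60.4 CPM. Eprs, which joins 2 synthetases in 1 chain, was highest in naive cells at 247 CPM and between 172 and 179 CPM in the 4 tumor-side libraries. Lars2 (chromosome 9, 123366927 to 123462666), the mitochondrial leucyl-tRNA synthetase, had 90.6, 46.4, 61.7, 85.7 and 66.9 CPM. Its lowest library was the Treg-depleted one.

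**Figure D1:**
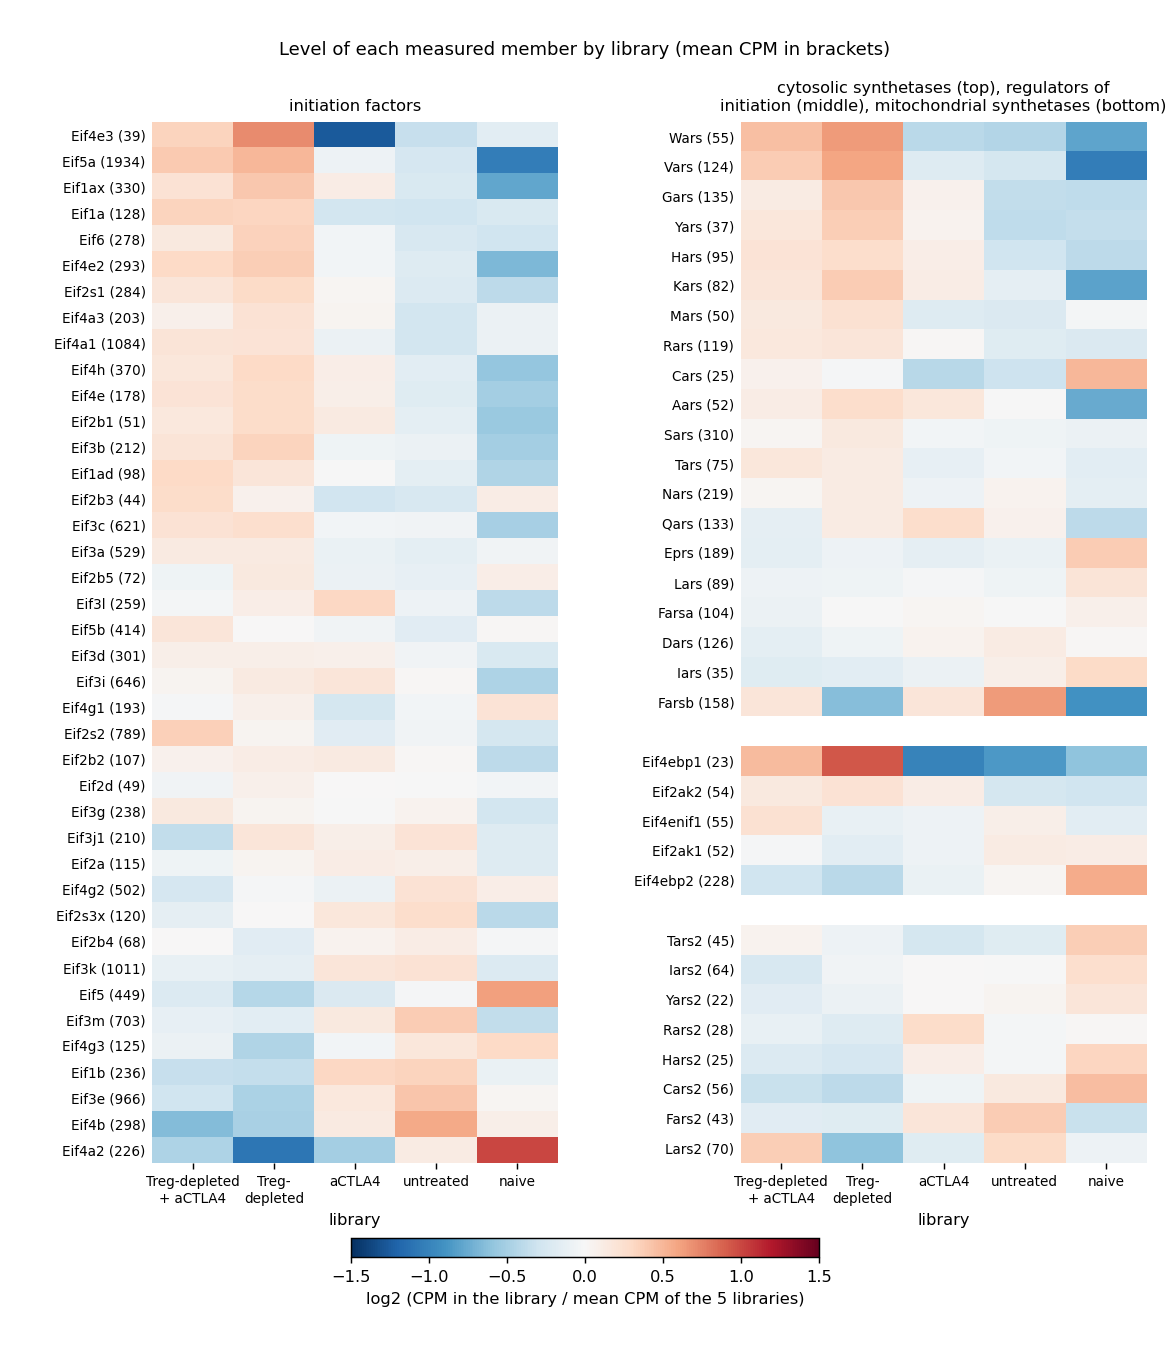
Level of each of the 73 measured members in the 5 libraries, drawn as log2 of its CPM over its mean CPM of the 5 libraries, on a colour scale from -1.5 to 1.5. Eif4ebp1 and Wars are above their means in both toxin libraries, Eif4a2 and Eif5 are above theirs in naive cells, and Farsb is highest in the untreated library while Farsa is flat.

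Untreated against naive cells addressed how tumor-side lymph node cells differ from naive spleen cells, a comparison in which tissue also differs. Farsb was 2.92-fold higher (2.68 to 3.19), Eif5a 1.72-fold (1.67 to 1.77), Vars 1.71-fold (1.51 to 1.93) and Aars, the alanyl-tRNA synthetase, 1.68-fold (1.41 to 1.99). Eif4a2 was 1.85-fold lower (1.73 to 1.98), Cars, the cysteinyl-tRNA synthetase, 1.74-fold lower (1.37 to 2.25), and Eif5, which triggers GTP hydrolysis by eIF2, 1.56-fold lower (1.48 to 1.64). In all, 8 of 73 measured members were higher by 1.5-fold or more and 3 were lower by as much, against 15.5% and 15.6% of all measured genes, so neither share was above that of genes in general. The 8 were Eif5a, Eif3m, Eif2s3x, Farsb, Vars, Aars, Kars and the mitochondrial Fars2. The median log2 ratio was 0.29 for initiation factors, 0.07 for cytosolic synthetases and -0.20 for mitochondrial synthetases, beside -0.02 for all measured genes; with the mean CPM of single cells the cytosolic median changes sign to -0.04. Eif3m shares 51.3% of its end words with Gm7658 and Aars shares such words with Exosc6. Eif2s3x shares 38.1% and Eif5a 13.2% of their end words with other genes on the same strand.

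The anti-CTLA4 library against the untreated library had 2 members past 1.5-fold, the fewest of the 6 library comparisons. None was at least 1.5-fold higher and 2 were at least 1.5-fold lower, Eif4e3 (1.89-fold, 1.53 to 2.32) and Eif4a2 (1.55-fold, 1.44 to 1.66), against 6.24% and 7.34% of all measured genes. The highest were Gars, the glycyl-tRNA synthetase, at 142 against 105 CPM, and Yars at 38.0 against 28.2 CPM, both 1.35-fold. The initiation factor and cytosolic medians were 0.02 and 0.03, beside -0.08 for all measured genes.

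Treg depletion against no treatment gave 9 members that were higher by 1.5-fold or more and 7 that were lower by as much, against 11.7% and 29.4% of all measured genes. The counts were 28 and 3 with TMM factors, against 21.4% and 15.8%. On the higher side were Eif4ebp1 (3.48-fold, 2.60 to 4.76), Wars (2.12-fold, 1.79 to 2.51), Eif4e3 (2.07-fold, 1.71 to 2.53), Vars (1.80-fold, 1.62 to 2.01), Gars (1.70-fold, 1.53 to 1.90), Eif5a and Yars (1.68-fold each), Eif1ax and Eif1a. On the lower side were Farsb (2.42-fold, 2.23 to 2.62), Eif4a2 (2.30-fold, 2.12 to 2.49), Eif4b (2.08-fold, 1.96 to 2.203), Eif3e (1.86-fold, 1.79 to 1.92), Lars2 (1.85-fold, 1.62 to 2.10), Eif1b and Eif4g3. Eif4b, the helper of the eIF4A helicase, had 213 CPM with Treg depletion against 443 CPM in untreated cells, and Eif3e, a subunit of eIF3, had 694 against 1289 CPM. Genes of the cap step thus stood on both sides: the blocker Eif4ebp1 and the cap-binding Eif4e3 were higher, and the helicase gene Eif4a2 and its helper Eif4b were lower.

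Both treatments against no treatment gave 6 members at least 1.5-fold higher and 3 lower, against 10.6% and 19.2% of all measured genes, or 16 and 1 with TMM factors, against 15.6% and 10.8%. The 6 were Eif4ebp1 (2.52-fold, 1.88 to 3.47), Wars (1.86-fold, 1.57 to 2.21), Eif4e3, Eif5a, Vars and Eif1a, and the 3 were Eif4b (2.34-fold lower, 2.201 to 2.48), Eif3e (1.64-fold, 1.59 to 1.70) and Eif1b. These 3 comparisons with the untreated library share that library, so they are not independent of each other. The initiation factor medians were 0.16 with Treg depletion and 0.12 with both treatments, the cytosolic ones 0.24 and 0.17, and the mitochondrial ones -0.19 and -0.19, beside all-gene medians of -0.24 and -0.17. Scaling with TMM factors moves the all-gene medians to 0.07 and 0.02, and with them the mitochondrial medians to 0.12 and 0.00, so the sign of the mitochondrial medians depends on the scaling and both lay within 0.06 of the all-gene medians.

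Adding the antibody to Treg depletion left most members within 1.5-fold: 3 were higher and none lower, against 5.67% and 1.1% of all measured genes. The 3 were Lars2 (90.6 against 46.4 CPM, 1.95-fold, 1.79 to 2.13), Farsb (180 against 102 CPM, 1.77-fold, 1.66 to 1.88) and Eif4a2 (165 against 107 CPM, 1.54-fold, 1.45 to 1.63), which are also the members of their roles that were lowest in Treg depletion against no treatment. The Treg-depleted library is in both of these comparisons, so a low value in it alone gives both. Adding toxin to the antibody gave 4 members higher and 2 lower, against 7.75% and 10.1%. They were Eif4e3 (3.03-fold, 2.70 to 3.40), Eif4ebp1 (2.78-fold, 2.41 to 3.20), Wars (1.81-fold, 1.67 to 1.97) and Eif1a on the higher side and Eif4b (1.72-fold, 1.66 to 1.79) and Eif1b on the lower.

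Cells were classed by cycle after thinning each cell to 1000 UMIs. A cell was called mitotic with UMIs of at least 2 of 37 G2 and M phase genes that were under 20 CPM in naive cells, and S phase only with at least 2 of 19 such S phase genes and no mitotic call. The mitotic share was 33.8% (32.3 to 35.3) with both treatments, 41.5% (39.4 to 43.6) with Treg depletion, 28.3% (27.0 to 29.7) with aCTLA4, 8.17% (6.60 to 9.97) in untreated and 0.55% (0.40 to 0.74) in naive cells. The toxin libraries, which stood highest in Eif5a, Vars, Wars and Eif4ebp1, thus also held the most mitotic cells. Mitotic cells were also deeper, with median UMIs of 5277 against 2247.5, 10053 against 4052.5, 8933.5 against 4120 and 4731.5 against 3093 in non-mitotic cells of the 4 tumor-side libraries. A ratio of CPM is set against all other RNA of the same cells, and the UMIs of initiation factors per cell were 123 against 36.6, 194 against 65.7, 149 against 68.0 and 78.4 against 50.5.

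Cytosolic synthetases were a larger share of the UMIs of mitotic cells. Their summed level was 2532 against 2059 CPM with both treatments, 2649 against 2060 with Treg depletion, 2309 against 2123 with aCTLA4 and 2265 against 2160 in untreated cells. Of the 20, 11 were higher in mitotic cells of all 4 tumor-side libraries, against 18.4% of all measured genes, and 1, Farsb, was lower in all 4, against 38.3%. The 11 were Aars, Cars, Dars, Hars, Iars, Lars, Nars, Rars, Vars, Wars and Yars. Initiation factors split: 12 of 40 were higher in all 4 libraries, among them Eif4a1, Eif4e, Eif4h, Eif3a and Eif3c, and 6 were lower in all 4, Eif4a2, Eif4g3, Eif1b, Eif3e, Eif3k and Eif3m. Of the mitochondrial synthetases Yars2 was higher in all 4 and Hars2 lower, and of the regulators none was higher and Eif2ak1 lower.

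Vars was the only measured member at least 1.5-fold higher in mitotic cells of all 4 tumor-side libraries. It had 203 against 102 CPM with both treatments (1.99-fold, 1.83 to 2.17), 223 against 121 CPM with Treg depletion (1.85-fold, 1.70 to 2.01), 146 against 75.8 CPM with aCTLA4 (1.93-fold, 1.79 to 2.08) and 193 against 89.9 CPM in untreated cells (2.15-fold, 1.68 to 2.71). The methionyl-tRNA synthetase Mars was higher in mitotic cells mainly with toxin, at 72.0 against 34.9 CPM (2.06-fold) with both treatments and 74.8 against 31.04 CPM (2.41-fold) with Treg depletion, but 52.0 against 37.5 CPM (1.39-fold) with aCTLA4 and 42.6 against 42.8 CPM in untreated cells. Farsb went the other way, at 105 against 280 CPM with both treatments (2.67-fold lower, 2.48 to 2.89), 91.7 against 119 CPM with Treg depletion (1.30-fold lower, 1.18 to 1.43), 137 against 214 CPM with aCTLA4 (1.56-fold lower, 1.47 to 1.66) and 195 against 254 CPM in untreated cells (1.30-fold lower, 1.05 to 1.63). With both treatments, 914 of 1337 mitotic and 691 of 2622 non-mitotic cells had a Foxp3 UMI. Among cells with a Foxp3 UMI, Farsb had 84.8 against 92.6 CPM with both treatments. With Treg depletion it was higher in mitotic ones, at 89.9 against 65.8 CPM. Among cells without a Foxp3 UMI it had 199 against 388 and 98.1 against 189 CPM. The part of Foxp3 status in the Farsb contrast was not tested.

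Eif5a was higher in mitotic cells of the 3 treated libraries and slightly lower in those of the untreated one, a difference that was not tested. The levels were 3227 against 1648 CPM with both treatments (1.96-fold, 1.92 to 2.00), 3283 against 1801 CPM with Treg depletion (1.82-fold, 1.78 to 1.86), 2173 against 1542 CPM with aCTLA4 (1.41-fold, 1.38 to 1.43) and 1478 against 1650 CPM in untreated cells (0.90-fold, 0.83 to 0.97). Eif4g3, a scaffold gene related to Eif4g1, was 1.91-fold, 1.502-fold, 1.29-fold and 1.44-fold lower in mitotic cells of the same 4 libraries. At least 1.5-fold higher in mitotic cells were 16, 13, 1 and 3 members in these libraries, against 11.7%, 11.3%, 6.95% and 7.42% of all measured genes. At least 1.5-fold lower were 3, 1, 1 and 2, against 29.3%, 22.3%, 12.1% and 10.6%. With TMM factors 40, 28, 8 and 3 were higher, against 21.8%, 17.2%, 10.6% and 8.19% of all measured genes, and 2, 0, 0 and 2 lower, against 16.9%, 13.5%, 5.02% and 9.26%.

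Cells called S phase only held a larger share of initiation factors and cytosolic synthetases than cells in neither class in all 4 tumor-side libraries. Initiation factors summed to 18320 against 13285 CPM with both treatments, 18856 against 13282 with Treg depletion, 17211 against 14204 with aCTLA4 and 20277 against 14718 in untreated cells. Cytosolic synthetases summed to 2504 against 2020, 2815 against 1959, 2547 against 2062 and 3203 against 2094 CPM in the same order. Unlike the mitotic comparison, the S phase one over all cells was as large in the untreated library as in the treated ones, on 27 cells there and 79 to 233 in the others. S phase only cells were also deeper than cells in neither class. Their median UMIs were 3024 against 2234, 7957 against 3963, 7789 against 4006 and 7389 against 3062 in the same order. Values for deep cells alone are given below. Of the 20 cytosolic synthetases, 17 were higher in S phase cells of all 4 libraries and 1, Qars, lower, against 23.5% and 37.1% of all measured genes; Farsb and Iars were mixed. Of the 40 initiation factors, 27 were higher in all 4 and 6 lower, the 6 being Eif1b, Eif3e, Eif3k, Eif3m, Eif4e3 and Eif4g3. Mitochondrial synthetases were closer, at 506 against 441, 372 against 378, 502 against 454 and 496 against 490 CPM.

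Eif5a had 3135 against 1518 CPM with both treatments (2.07-fold), 3417 against 1585 CPM with Treg depletion (2.16-fold), 2589 against 1389 CPM with aCTLA4 (1.86-fold) and 4038 against 1498 CPM in untreated cells (2.70-fold, 2.50 to 2.91). Its level was thus higher in S phase cells of the untreated library, where it was not higher in mitotic ones. Eif3b, the scaffold subunit of eIF3, had 332 against 167, 432 against 170, 270 against 173 and 430 against 187 CPM, between 1.56-fold and 2.54-fold higher. Gars, whose promoter holds TTTCATCA close to its start, had 194 against 99.0, 210 against 129, 176 against 110 and 258 against 95.6 CPM, between 1.60-fold and 2.70-fold higher. Qars, the glutaminyl-tRNA synthetase, had 109 against 128, 100 against 156, 153 against 158 and 96.1 against 135 CPM.

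**Figure D2:**
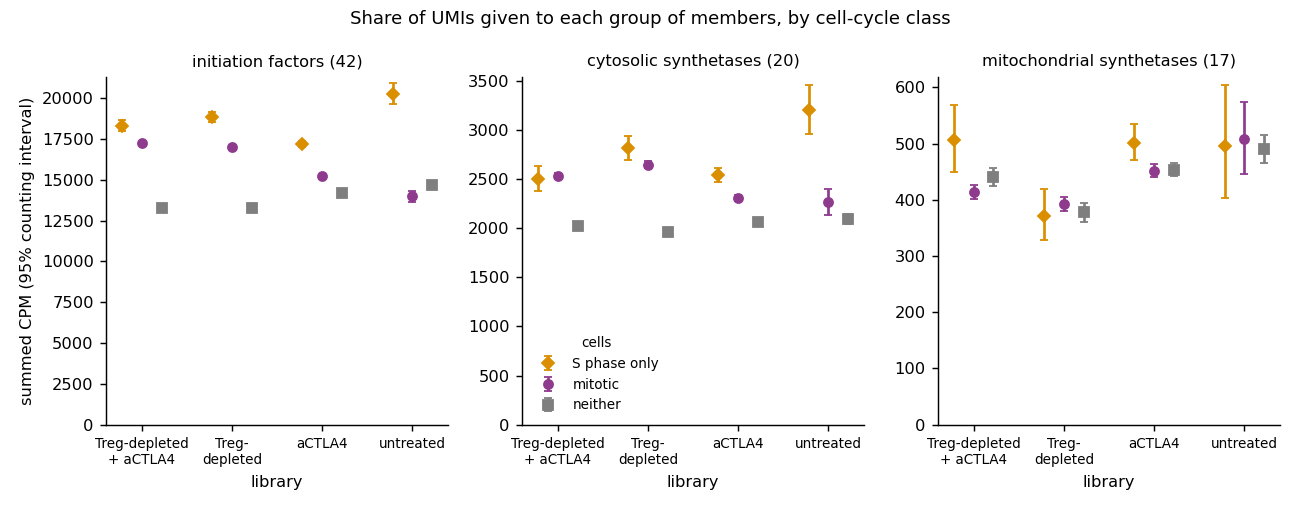
Summed CPM of the 42 initiation factors, 20 cytosolic and 17 mitochondrial synthetases in S phase only cells (diamonds), mitotic cells (circles) and cells in neither class (squares) of the 4 tumor-side libraries, with 95% counting intervals. S phase only cells are highest for initiation factors and for cytosolic synthetases except with both treatments, where mitotic cells reach 2532 CPM, and mitochondrial synthetases show no such order.

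Depth moved with these classes, and the mitotic excess was smaller among deep cells of the toxin libraries and turned to a deficit with aCTLA4. In untreated cells the cytosolic excess turned to a deficit, and the initiation factor median, negative over all cells, was lower still. With both groups held to cells of at least the median UMI count of the mitotic cells, initiation factors summed to 18211 against 17423 CPM with both treatments, 18334 against 18207 with Treg depletion, 15931 against 17809 with aCTLA4 and 14904 against 18227 in untreated cells. Cytosolic synthetases summed to 2642 against 2507, 2812 against 2750, 2431 against 2683 and 2412 against 2631 CPM. The initiation factor medians became 0.02, -0.01, -0.15 and -0.22, where they were 0.30, 0.32, 0.07 and -0.08 over all cells, and the cytosolic ones 0.06, 0.07, -0.14 and -0.13, where they were 0.44, 0.47, 0.13 and 0.04. The all-gene medians of deep cells were -0.11, 0.0065, -0.09 and -0.05. Deep non-mitotic cells thus had levels close to those of mitotic ones in the toxin libraries and higher levels in the other 2. Vars remained higher in deep mitotic cells, at 205 against 148, 227 against 162, 167 against 135 and 235 against 118 CPM. The deep cells were 669 mitotic and 168 non-mitotic, 447 and 53, 647 and 204, and 44 and 132. Their median UMIs still differed, at 9794 against 6437, 15390 against 11991, 12877 against 10789 and 6758.5 against 5616.

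For S phase only cells, the same restriction left initiation factor medians of 0.41, 0.44, 0.11 and -0.03 and cytosolic medians of 0.42, 0.28, 0.16 and 0.21, where all cells gave 0.42, 0.53, 0.29 and 0.38 and 0.50, 0.63, 0.41 and 0.89. The excess was thus close to its full size with both treatments and smaller with Treg depletion and aCTLA4. In untreated cells the initiation factor excess was no longer seen, at sums of 22926 against 22849 CPM, and the cytosolic one was smaller. The untreated values there rest on 14 S phase cells. The deep S phase cells were still deeper than the deep cells of neither class. Their median UMIs were 6189.5 against 3923, 11013 against 9411, 10481 against 9547 and 9071.5 against 8435 in the same library order. Depth was thus least matched with both treatments, where the excess kept most of its size, and its part was not tested. Within cells of neither class, split into 3 equal sets by UMI count, the initiation factor level of the shallowest, middle and deepest set was 12561, 12557 and 13936 CPM with both treatments and 12925, 12623 and 13780 CPM with Treg depletion. It was 13300, 13543 and 14953 CPM with aCTLA4 and 13665, 13973 and 15591 CPM in untreated cells. The deepest set was highest in all 4 libraries, while the middle set was not above the shallowest in the toxin libraries.

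**Figure D3:**
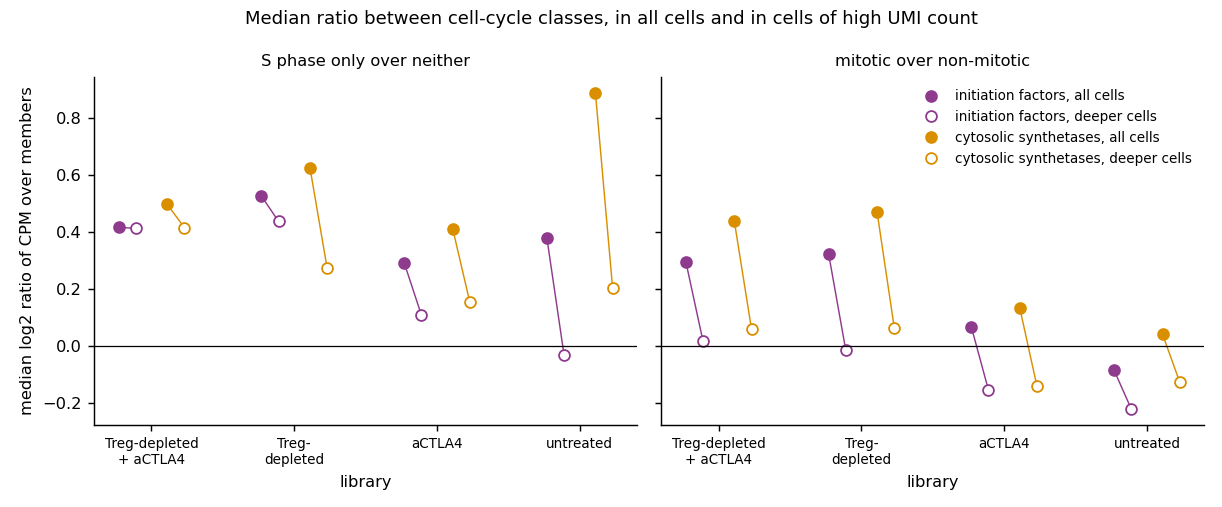
Median log2 ratio of initiation factors and cytosolic synthetases in the 4 tumor-side libraries over all cells (filled) and over cells at least as deep as the median positive cell (open), for S phase only over neither on the left and mitotic over non-mitotic on the right. The mitotic medians of up to 0.47 come to 0.07 or less in deep cells, and the S phase medians of the library with both treatments stay at 0.41 and 0.42. Depth is not fully matched between the deep sets, least so for S phase only cells with both treatments.

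Cells with a Foxp3 UMI were 38.0% (36.5 to 39.4) with both treatments and 58.7% (56.6 to 60.8) with Treg depletion, against 1.18% with aCTLA4, 1.46% in untreated and 0.905% in naive cells. These 3 shares do not measure free Foxp3 RNA within the toxin libraries. There, cells with 2 or more plasma cell markers, which should lack Foxp3, had a Foxp3 UMI in 1 of 5 cells with both treatments (0.505% to 71.6%) and 5 of 17 with Treg depletion (10.3% to 56.0%), at median UMIs of 13187 and 18244, so the background of a Foxp3 UMI is not known closely. The Foxp3 level of these few deep cells was 25.3 CPM with both treatments and 68.1 CPM with Treg depletion. Cells with fewer than 2 such markers had 349 and 386 CPM. Foxp3 encodes the transcription factor that defines regulatory T cells. Foxp3-positive cells were deeper, at median UMIs of 4599 against 1952.5 with both treatments and 6611.5 against 3835.5 with Treg depletion, and a deeper cell is more likely to show a UMI. Markers of other cells sat in the Foxp3-negative group: plasma cell markers summed to 8.50 against 294 CPM and 8.74 against 920 CPM, and myeloid ones to 279 against 632 and 286 against 557 CPM.

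Foxp3-positive cells held more initiation factor and cytosolic synthetase RNA, at 16789 against 13835 CPM and 2456 against 2103 CPM with both treatments and at 16206 against 15117 and 2493 against 2285 CPM with Treg depletion. The initiation sums include Eif5a, at 3087 CPM in Foxp3-positive cells with both treatments (1.89-fold higher) and 3044 CPM with Treg depletion (1.52-fold higher). Eif5a is thus a large part of the excess of these sums, and most of it with Treg depletion. Mitochondrial synthetases were lower, at 399 against 490 and 362 against 447 CPM. With both treatments 17 of 73 members were higher by 1.5-fold or more and 7 lower by as much, against 11.8% and 29.8% of all measured genes. With Treg depletion alone 6 were higher and 3 lower, against 6.97% and 17.8%. With TMM factors these counts were 33 and 3 with both treatments, against 21.8% and 18.7%, and 10 and 1 with Treg depletion, against 11.4% and 11.6%. When Foxp3 status was called after thinning, these medians did not hold: for initiation factors 0.02 and -0.20, and for cytosolic synthetases 0.09 and -0.16, where they were 0.25 and 0.12, and 0.40 and 0.19. Calling Foxp3 after thinning also moves cells with few Foxp3 UMIs to the negative group. Among deep cells they were 0.10 and 0.10, and 0.14 and 0.11. Median UMIs of those deep cells were 8282 against 6199.5 with both treatments and 11460.5 against 10008 with Treg depletion.

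Named members of this comparison were Eif4e3, Wars and Eif4ebp1 on the higher side. Eif4e3 had 61.6 against 28.5 CPM with both treatments (2.16-fold, 1.83 to 2.56) and 77.8 against 29.5 CPM with Treg depletion (2.64-fold, 2.21 to 3.18). Wars had 91.6 against 49.0 CPM (1.87-fold, 1.64 to 2.13) and 98.8 against 55.0 CPM (1.80-fold, 1.57 to 2.06). Eif4ebp1 had 41.4 against 15.6 CPM (2.65-fold, 2.13 to 3.33) and 51.3 against 25.7 CPM (1.99-fold, 1.64 to 2.44). The Foxp3-negative cells of both toxin libraries were thus closer than the Foxp3-positive ones to the untreated library, which had 30.6, 40.5 and 12.5 CPM of Eif4e3, Wars and Eif4ebp1. Lower in Foxp3-positive cells were Farsb, at 86.5 against 333 CPM (3.85-fold, 3.56 to 4.16) and 82.8 against 146 CPM (1.77-fold, 1.60 to 1.95), and Lars2, at 69.9 against 124 CPM (1.78-fold, 1.61 to 1.97) and 39.2 against 63.5 CPM (1.62-fold, 1.40 to 1.88). Farsb in Foxp3-positive cells of both libraries was as low as in naive cells, at 84.04 CPM. With Foxp3 called after thinning, these 5 ratios kept their sign in both libraries and every size was smaller. With both treatments the log2 ratios were then 0.45 for Eif4e3, 0.37 for Wars, 0.42 for Eif4ebp1, -1.29 for Farsb and -0.35 for Lars2, and with Treg depletion 0.64, 0.36, 0.42, -0.70 and -0.05. Without cells holding 2 or more markers of another cell type, the Eif4ebp1 log2 ratios were 1.62 and 1.69, where all cells gave 1.41 and 1.00, and those of the other 4 genes kept their sign.

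Of the Foxp3-positive cells deep enough to class, 914 were mitotic and 691 not with both treatments, and 645 and 627 with Treg depletion. The ratios were therefore also taken within each class, which gives 4 comparisons. Depth was not matched in them, as Foxp3-positive cells stayed deeper in each. With both treatments and with Treg depletion, median UMIs were 7143.5 against 2617 and 10856 against 7286 in mitotic cells. In non-mitotic cells they were 3059 against 2061 and 4716 against 3546. Eif4e3 was higher in Foxp3-positive cells of all 4: 57.4 against 29.8 CPM and 72.0 against 32.7 CPM in mitotic cells with both treatments and with Treg depletion, and 73.8 against 28.3 and 92.0 against 26.1 CPM in non-mitotic cells. Wars was higher by 1.62-fold and 1.51-fold in mitotic and 1.89-fold and 2.17-fold in non-mitotic cells. Eif4ebp1 differed by class: it was 4.42-fold (3.10 to 6.42) and 4.02-fold (2.85 to 5.78) higher in non-mitotic cells, against 1.29-fold (0.97 to 1.76) and 1.25-fold (0.99 to 1.61) in mitotic cells, where both intervals include 1. In deep cells of both classes together Eif4ebp1 was 1.22-fold (0.91 to 1.69) and 1.27-fold higher, Eif4e3 2.01-fold and 2.78-fold and Wars 1.60-fold and 1.76-fold.

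Farsb was lower in Foxp3-positive cells of all 4 comparisons, by 2.35-fold (2.05 to 2.68) and 1.09-fold (0.93 to 1.27) in mitotic and by 4.20-fold and 2.87-fold in non-mitotic cells, so that the interval of mitotic cells with Treg depletion includes 1. Farsa had 112 against 89.5 and 109 against 105 CPM in mitotic and 91.4 against 83.1 and 87.8 against 107 CPM in non-mitotic cells. In deep cells Farsb was 1.67-fold lower with both treatments and 1.13-fold lower (0.98 to 1.30) with Treg depletion. Over all roles, 19 of 40 initiation factors, 7 of 20 cytosolic synthetases, 2 of 5 regulators and none of the 8 mitochondrial synthetases were higher in all 4 comparisons, against 17.9% of all measured genes. Lower in all 4 were 8, 2, 2 and 5, against 40.2%. The 7 synthetases were Cars, Kars, Mars, Rars, Tars, Vars and Wars, though Cars and Mars were lower with Treg depletion once Foxp3 was called after thinning (log2 -0.24 and -0.38). The 5 mitochondrial ones were Cars2, Fars2, Hars2, Iars2 and Lars2. The 8 initiation factors were Eif1b, Eif3e, Eif3k, Eif3m, Eif4a2, Eif4b, Eif4g3 and Eif5.

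**Figure D4:**
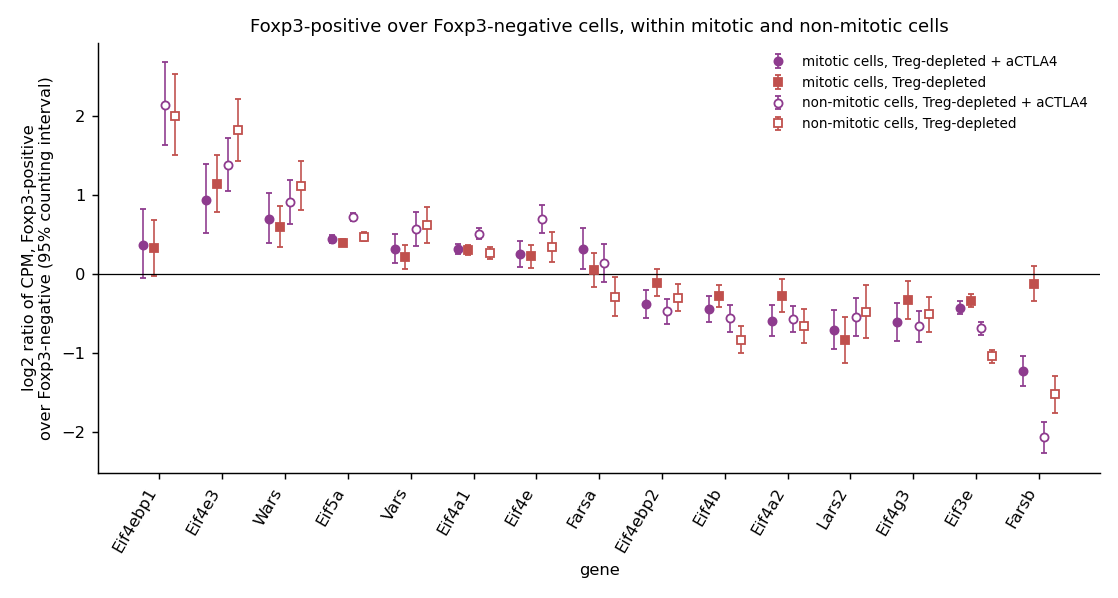
Log2 ratio of Foxp3-positive over Foxp3-negative cells for 15 members in mitotic and non-mitotic cells of the library with both treatments and the Treg-depleted library, with 95% counting intervals. Eif4e3 and Wars lie above 0 in all 4 comparisons and Farsb and Lars2 below 0, with 1 Farsb interval reaching 0, and Eif4ebp1 lies far above 0 in non-mitotic cells.

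The library comparisons were repeated in non-mitotic cells without a Foxp3 UMI. Treg depletion against no treatment then left none of the members at least 1.5-fold higher and 5 lower, against 6.01% and 11.5% of all measured genes. Wars had 47.9, 44.8, 40.2 and 40.4 CPM with both treatments, Treg depletion, aCTLA4 and no treatment, Eif4e3 28.3, 26.1, 18.5 and 31.2 CPM, Eif4ebp1 9.88, 15.6, 11.6 and 14.1 CPM and Eif5a 1330, 1475, 1529 and 1653 CPM. Against untreated cells, Eif5a was thus lower in both toxin libraries. Eif4e3 was lower there only within its counting error, at log2 ratios of -0.14 with both treatments and -0.26 with Treg depletion. Wars was 1.18-fold (0.95 to 1.48) higher with both treatments and 1.11-fold (0.86 to 1.43) with Treg depletion, and Eif4ebp1 was 1.42-fold lower (0.92 to 2.204) and 1.11-fold higher (0.71 to 1.73), with intervals that include 1. Medians against the untreated library were -0.08 with Treg depletion and -0.19 with both treatments for initiation factors, and -0.21 and -0.22 for cytosolic synthetases, beside -0.12 and -0.05 for all genes.

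Eif4b remained lower, at 227, 267, 347 and 448 CPM in the same order, which is 1.97-fold lower (1.82 to 2.14) with both treatments and 1.68-fold lower (1.53 to 1.84) with Treg depletion than without treatment. Naive cells had 317 CPM, so Eif4b stood above them in untreated and aCTLA4 cells and below them in both toxin libraries. Both treatments against no treatment gave 2 members higher, Farsb and Eif4enif1, and 3 lower, Eif4b, Eif3j1 and Eif2s3x, against 8.03% and 7.93% of all measured genes. Against Treg depletion alone, 3 were higher and 3 lower, against 11.4% and 5.23%. The 3 higher were again Farsb (388 against 189 CPM, 2.06-fold, 1.86 to 2.28), Lars2 (115 against 59.2 CPM, 1.94-fold, 1.62 to 2.35) and Eif4a2 (238 against 147 CPM, 1.61-fold, 1.43 to 1.82).

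**Figure D5:**
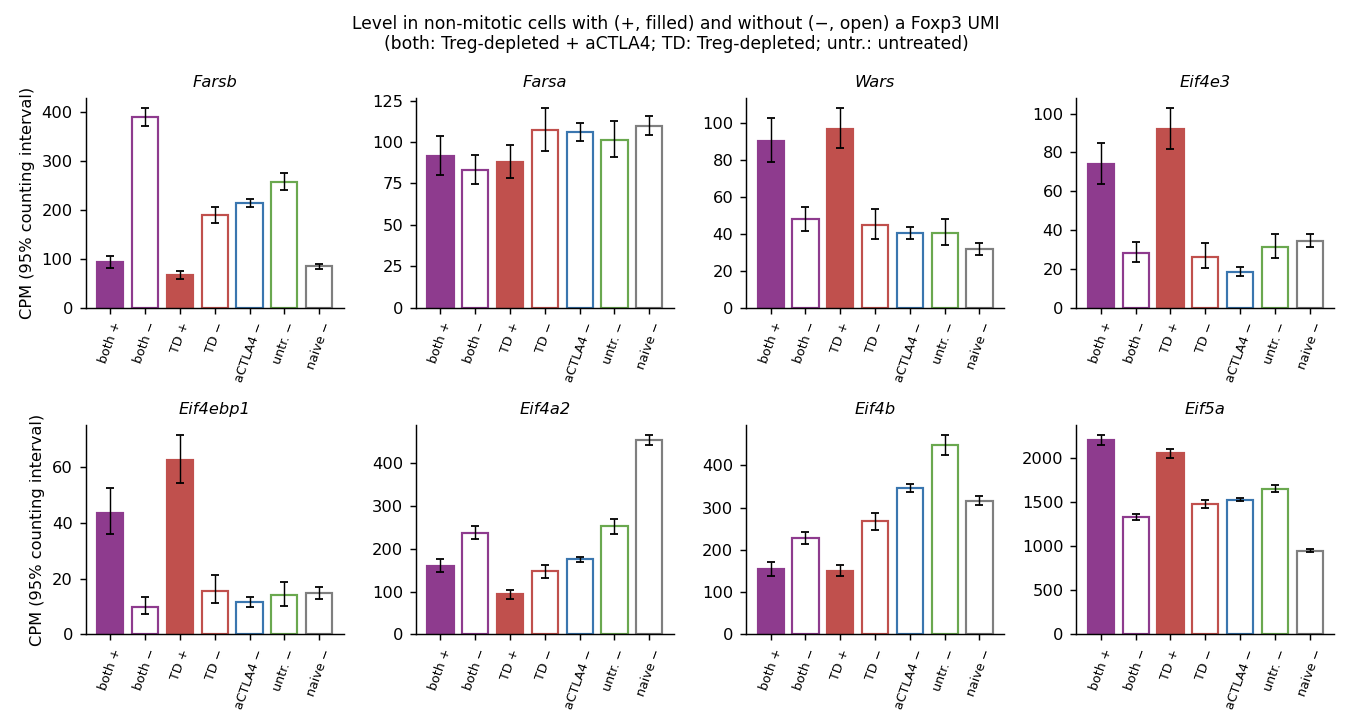
CPM of 8 members in non-mitotic cells with (+) and without (-) a Foxp3 UMI: both treatments and Treg-depleted (TD) cells with and without it, then aCTLA4, untreated and naive cells without it; lines are 95% counting intervals. Wars, Eif4e3 and Eif4ebp1 are high in the 2 Foxp3-positive bars and Farsb reaches 388 CPM in Foxp3-negative cells with both treatments.

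Other genes of protein synthesis, came from lists chosen with earlier results of these data known. Of 9 measured elongation and termination genes, 2 were at least 1.5-fold higher and 2 lower with Treg depletion than without, and of 8 genes of the multisynthetase complex and tRNA partners 1 and 1, against the same 11.7% and 29.4%. Hbs1l, which rescues stalled ribosomes, had 420 CPM with both treatments and 389 with Treg depletion, against 63.0 CPM in untreated cells. Pdcd4, an inhibitor of eIF4A, had 532 and 352 CPM against 1688 CPM. Of 15 genes of mTOR and S6 kinase signalling, 3 were higher and 4 lower with Treg depletion, the lower ones being Pdcd4, Rptor, Rictor and Tsc1. Aimp2, a scaffold of the synthetase complex, was higher in mitotic cells like most cytosolic synthetases, at 91.9 against 44.6 CPM with both treatments.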

How the data were processed

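Each library is a table of UMI counts per gene and cell that the authors deposited. Per the submitters' processing notes, bcl2fastq 2.20, Cell Ranger 6.0.0, the mm10 build, R 4.1.1 and Seurat 4.0.4 were used, and per the labels the libraries were made with the 10x 3′ kit. Whether intronic reads or strand were used in counting is not given in the sources used here.

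UMI counts were summed over cells of a library or class and divided by the total of the 11924 listed genes (CPM). Ratios have exact conditional binomial intervals, CPM exact Poisson and shares exact Clopper-Pearson ones (95%), which cover counting error only. A difference of 1.5-fold was used for counts of genes, with a mean CPM of at least 20, and 3 UMIs as the floor of a count of 0. A cell needed 200 genes and at most 10% mitochondrial UMIs, which removed 0 cells. Cycle classes were called on cells thinned to 1000 UMIs (seed 1). The list of 52 G2 and M genes first chosen marked 80.9% to 89.3% of the thinned cells of every library, naive ones included, so the mitotic class, of its 37 genes under 20 CPM in naive cells, was added after seeing the data. Foxp3 status was a UMI before thinning. No doublet caller was run. Promoter motifs and shared 31-base words of the last 300 transcript bases were searched in RefSeq and GENCODE sequences, and gene coordinates are those of GENCODE vM21 (mm10).

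Python 3.11.15, numpy 2.4.6, scipy 1.17.1, pandas 2.3.3 and matplotlib 3.10.9 were used, and edgeR 4.0.16 in R 4.3.3 for TMM factors only. On simulated counts of the untreated and naive libraries (7085 genes, 200 changed 2-fold), 100% of changed genes and 0.131% of the others passed 1.5-fold, and 95.6% of intervals covered the simulated ratio. Named members are the up to 4 highest and 4 lowest of a role in a comparison by the interval bound nearest to 1, with Eif4a1, Eif4a2, Eif4e, Eif4ebp1, Eif4ebp2, Eif4g1, Eif5a, Eif6, Eif2ak1 to Eif2ak4, Eif2s1, Lars2, Wars, Gars, Eprs, Farsa and Farsb. Lists of members by name are counts written out, and Eif2d was chosen after its values were seen. The members and lists were chosen with earlier results of these data known. Alternatives were other scalings, gene and cell filters, an added 0.5 UMIs, other class calls and restrictions to cell classes.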

Additional observations from a re-analysis of the deposited data

Results flagged for a closer look

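The anti-CTLA4 contrast of Eif4a2, the helicase relative of Eif4a1, had opposite signs in the 2 settings in which it can be taken. The log2 ratio was -0.63 for aCTLA4 against untreated cells and 0.62 for both treatments against Treg depletion alone. Each side is 1 library against 1 library, and the difference was not tested.

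Eif4ebp1 differed in its mitotic contrast. Its log2 ratio of mitotic over non-mitotic cells was 0.82 with both treatments and -2.80 in untreated cells. The untreated value rests on 1 UMI in 88 mitotic cells, against 47 UMIs in 989 non-mitotic cells, so its interval runs from a ratio of 0.00355 to 0.838. The difference was not tested.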

How the results depend on the processing

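No paired analysis was possible because each group is 1 library and the labels give no shared replicate numbers; for the same reason no library could be left out. Of 568 medians taken under alternatives, the 42 taken without cells holding 2 or more markers of another cell type each lay within the order-statistic interval, over members, of the median of all cells. Over all alternatives, 212 library, 109 G2M list, 80 mitotic and 70 Foxp3 medians of the 568 kept to the reported result in this way, and the rest did not. Low members are limited by depth: 1 UMI in the untreated library is 0.261 CPM. Where a cause of a change is not given by the construction of the alternative, the cause was not tested. All values are median log2 ratios unless a gene is named, pairs of them are initiation factors and then cytosolic synthetases, and the settings on the mitotic class and on deep cells were chosen after seeing the data. The planned identities between proteins of related members were not run.

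With TMM factors, Treg depletion against no treatment gave 0.47 (initiation), 0.55 (cytosolic) and 0.12 (mitochondrial), both treatments against Treg depletion -0.14 (initiation) and against aCTLA4 0.14 (cytosolic). The mitotic contrasts gave 0.59 and 0.73 with both treatments, 0.53 and 0.67 with Treg depletion and 0.25 and 0.32 with aCTLA4, the Foxp3 contrasts 0.52 (initiation, both treatments) and 0.36 (cytosolic, Treg depletion) and the G2M list contrast of aCTLA4 0.17 (initiation). Centred on the all-gene median, these were 0.40 for initiation factors in Treg depletion against no treatment, 0.15 for both treatments against aCTLA4 (cytosolic), 0.51 and 0.65, 0.49 and 0.63, and 0.23 (initiation) for the mitotic contrasts, 0.11 for untreated (cytosolic), 0.45 for Foxp3 (initiation, both treatments) and 0.15 for G2M in aCTLA4.

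In cells outside the first G2M list, initiation and cytosolic medians were -0.16 and -0.16 for aCTLA4, -0.24 and -0.17 for Treg depletion and -0.20 and -0.23 for both treatments against no treatment, -0.12 (cytosolic) against aCTLA4, and 0.047 and 0.068 for Foxp3 with both treatments and -0.15 (cytosolic) with Treg depletion. There Yars (-0.32), Eif5a (-0.086) and Eif1ax (-0.065) turned lower with Treg depletion, Eif5a (-0.15) and Vars (-0.014) with both treatments, and Yars (-0.55) and Mars (-0.47) in Foxp3-positive cells with both treatments. In cells outside the mitotic class, the medians were -0.022 and -0.11 for Treg depletion and -0.052 (cytosolic) for both treatments against no treatment, -0.097 and -0.12 against aCTLA4 and -0.035 (cytosolic) for Foxp3 with Treg depletion, and Eif5a was -0.0010 with both treatments. In mitotic cells alone the Foxp3 median of initiation factors with both treatments was 0.11.

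In Foxp3-negative cells the medians with both treatments were -0.086 and -0.094 against no treatment, -0.14 and -0.22 against Treg depletion and -0.15 and -0.20 against aCTLA4, Eif4e3 was -0.025 with Treg depletion and -0.074 with both treatments, and the cytosolic G2M list medians were 0.10 and 0.13 in the toxin libraries. In receptor-positive Foxp3-negative cells they were -0.19 and -0.18, -0.23 and -0.24, and -0.20 and -0.25, and with both treatments against none Eif4e3 (-0.18), Eif4ebp1 (-0.040), Eif5a (-0.14) and Vars (-0.020) turned lower. In non-mitotic Foxp3-negative cells, Treg depletion against none gave -0.081 and -0.21, both treatments -0.19 and -0.22 against none, -0.16 (initiation) against Treg depletion and -0.20 and -0.28 against aCTLA4. There Eif4e3 (-0.26) and Eif5a (-0.16) turned lower with Treg depletion, Eif4e3 (-0.14), Eif4ebp1 (-0.51), Eif5a (-0.31) and Vars (-0.058) with both treatments against none, and Eif4ebp1 (-0.23) against aCTLA4.

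With cells at least as deep as the median mitotic (or Foxp3-positive) cell, the mitotic medians were 0.018 and 0.060, -0.013 and 0.065, -0.15 and -0.14, and -0.22 and -0.13 with both treatments, Treg depletion, aCTLA4 and none, and the Foxp3 ones 0.096 and 0.14 with both treatments. Eif2b3 (-0.22) and Eif4ebp1 (-0.35) with both treatments and Eif3b (-0.14) with Treg depletion turned lower in mitotic cells. With Foxp3 called after thinning the medians were 0.016 and 0.089 with both treatments and -0.20 and -0.16 with Treg depletion, and Cars (-0.24), Mars (-0.38) and Eif5a (-0.22) turned lower in the Treg-depleted library. The mean CPM of single cells gave -0.077 and -0.061 for both treatments against aCTLA4, and G2M list medians of 0.064 (cytosolic) with both treatments and 0.15 and 0.23 with Treg depletion.

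Without thinning, the G2M list medians were 0.38 (initiation) with both treatments, 0.51 and 0.29 with Treg depletion, -0.028 and -0.26 in untreated and 0.016 and 0.020 in naive cells, the mitotic ones 0.40 and 0.64 with Treg depletion and 0.18 and 0.26 in untreated cells, and Eif2b3 was 0.052 in untreated mitotic cells. With the S and G2M lists together, the medians were 0.47 and 0.69 with Treg depletion, 0.17 (initiation) with aCTLA4 and 0.26 and 0.10 in untreated cells. Thinned, the first G2M list gave initiation medians of 0.25, 0.23, 0.09, -0.12 and -0.02 and cytosolic ones of 0.35, 0.33, 0.11, -0.19 and -0.05 with both treatments, Treg depletion, aCTLA4, none and in naive cells.

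Over the reported setting and all alternatives, members at least 1.5-fold higher and lower are given with the range of the share of all genes in brackets. They ran from 6 to 9 (14.4% to 21%) and 2 to 6 (13.2% to 20.4%) for untreated against naive cells. Against no treatment they ran from 0 to 2 (3.99% to 11.1%) and 1 to 6 (3.56% to 13.5%) for aCTLA4, 0 to 28 (6.01% to 21.4%) and 3 to 17 (11.5% to 35.3%) for Treg depletion and 1 to 16 (8.03% to 16.2%) and 1 to 10 (7.1% to 24.4%) for both treatments. For both treatments they ran from 2 to 5 (4.26% to 15.3%) and 0 to 6 (0.953% to 8.86%) against Treg depletion and 2 to 8 (7.01% to 15.3%) and 1 to 5 (7.85% to 16.5%) against aCTLA4. For mitotic cells they ran from 2 to 40 (7.37% to 21.8%) and 2 to 4 (15.7% to 36.3%) with both treatments, 1 to 28 (9.19% to 17.2%) and 0 to 2 (8.15% to 28.9%) with Treg depletion, 0 to 8 (4.44% to 10.6%) and 0 to 2 (4.97% to 18.7%) with aCTLA4 and 2 to 7 (5.72% to 17.3%) and 0 to 11 (4.68% to 20.2%) without treatment. For Foxp3 they ran from 0 to 33 (2.07% to 21.8%) and 1 to 10 (10.5% to 37.3%) with both treatments and 1 to 10 (3.02% to 14.8%) and 0 to 7 (5.42% to 27.2%) with Treg depletion.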

Other observations

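Of a list of 16 measured genes of the amino acid response, which Atf4 is known to activate together with several synthetases, 3 genes of serine metabolism were named after their values were seen. Phgdh, the first enzyme of serine synthesis, had 522 CPM with both treatments, 576 with Treg depletion and 447 with aCTLA4, against 235 CPM in untreated cells. Psat1 had 117, 140 and 140 CPM, against 71.1 CPM, and Shmt2, the mitochondrial serine hydroxymethyltransferase, had 86.8, 96.5 and 63.0 CPM, against 46.0 CPM, so these genes stood above the untreated library in all 3 treated ones. Others of the list stood lower in the toxin libraries: with both treatments and with Treg depletion Ddit3 had 44.8 and 31.9 CPM, against 72.9 CPM, and Ddit4 had 106 and 140 CPM, against 250.1 CPM. In all, 5 were at least 1.5-fold higher and 4 lower with Treg depletion, against 11.7% and 29.4% of all measured genes, and 4 and 2 with both treatments, against 10.6% and 19.2%.

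Asns, the asparagine synthetase and a known Atf4 target, was under the minimum CPM over the 5 libraries and so in no count. It had 338 UMIs with both treatments (20.04 CPM), 290 with Treg depletion (18.0 CPM) and 53 with aCTLA4 (1.90 CPM), against 0 in the untreated library and 6 in naive cells (0.44 CPM). With the untreated library at the floor of 3 UMIs, it was at least 25.6-fold and at least 22.9-fold higher in the 2 toxin libraries. It was named after its values were seen.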
